A study of Mus musculus with 6 samples.

Results

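The 32 genes described here belong to the Hippo pathway or are known targets of its effectors YAP and TAZ. They were listed by name, not picked by a value threshold, but with earlier results of these data known. They were looked up among the 57010 gene identifiers of the count table by matching Ensembl identifiers to mouse symbols. All 32 were found, and all 32 passed the filter on low counts that left 16093 genes for testing. They comprise 25 pathway components (8 transcription factors and cofactors, 8 members of the kinase cassette, 9 upstream scaffolds and inhibitors) and 7 targets. RNA was taken from mouse ear dermal fibroblasts that had been kept for 3 days on glass, on a polyacrylamide gel of 1 kPa or on one of 20 kPa, with 500000 cells per sample, 2 libraries per substrate and 6 in all. The crosslinking of such a gel sets how stiff it is, and glass, the control, is far stiffer than both gels. The series concerns matrix stiffness and the reprogramming of fibroblasts to neurons, but the labels of these samples name no reprogramming factor, and no strain, age or genotype. Nothing in the labels says that 2 libraries of 1 substrate are separate cultures or animals, so the p-values here reflect only the variation between the libraries, possibly technical.

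The Hippo pathway is a kinase cascade that restrains the transcriptional coactivators YAP (gene Yap1) and TAZ (gene Wwtr1). The MST kinases, with their scaffold Sav1, activate the LATS kinases and their cofactor MOB1, and LATS phosphorylates YAP and TAZ so that they are held in the cytoplasm or degraded. Unphosphorylated YAP and TAZ enter the nucleus and bind DNA through the TEAD factors. In fibroblasts YAP and TAZ are known to respond to the stiffness of the matrix, through the actin cytoskeleton, by changes of location and phosphorylation. RNA levels report on neither, and on YAP/TAZ activity only through the targets.

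Library totals ran from 17669006 to 21350111 counts. Values are given in CPM, a gene's counts relative to the TMM-scaled size of its library, and 3 counts correspond to 0.139 to 0.174 CPM. The 10 fibroblast markers looked for, among them Col1a1, Col1a2, Pdgfra and Vim, were present in every library, with a sum of 19600 to 21000 CPM on glass, 28300 to 29500 on 1 kPa and 30900 to 32200 on 20 kPa. Against glass, 8 of these 10 were called higher and 2 lower on 1 kPa, and 7 higher and 2 lower on 20 kPa. Markers of other cells that ear tissue could bring were also measured. The summed level of 9 chondrocyte markers was 556 to 589 CPM on glass, 855 to 880 on 1 kPa and 1460 to 1520 on 20 kPa, and that of 9 pericyte and smooth muscle markers 343 to 382, 233 to 239 and 265 to 278. The other lists, of 9 markers each, were lower in sum but also moved with the substrate. Macrophage and leukocyte markers summed to 16.3 to 17.9 CPM on glass, 56.1 to 56.2 on 1 kPa and 24.8 to 28.5 on 20 kPa, with 2 of 5 tested markers called higher on 1 kPa and 3 not called. Skeletal muscle markers summed to 16.6 to 18.7, 42.4 to 42.8 and 25.3 to 28.3 CPM on the same substrates, and endothelial markers to 20.3 to 22.0, 38.5 to 43.4 and 38.3 to 38.5. Schwann cell and melanocyte markers summed to 8.7 to 10.2, 15.0 to 16.7 and 23.2 to 23.9 CPM, and keratinocyte markers to 18.7 to 23.7, 26.5 to 28.4 and 27.0 to 27.8. A sum need not follow most of its markers. Of 5 tested keratinocyte markers, 3 were called lower and 1 higher on each gel against glass. Of the 9 pericyte and smooth muscle markers, 4 were called higher and 3 lower on 1 kPa, and 3 higher and 4 lower on 20 kPa. No marker of these lists was at 0 in all 6 libraries. The part of other cells in the results below was not tested, and in these bulk samples fewer cells of a type and less RNA per cell cannot be told apart.

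The targets fell on both gels in most cases, whereas the components were split and moved less. On 1 kPa, 5 of 7 targets fell against glass and 2 rose, and of 25 components 10 fell, 4 rose and 11 did not pass the test (edgeR quasi-likelihood test, Benjamini-Hochberg adjusted p under 0.05). In this comparison 45.0% of all tested genes were called, 23.0% higher and 22.0% lower and 65.6% of the 32 members. On 20 kPa, 6 of 7 targets fell and 1 rose, and of the components 11 fell, 6 rose and 8 did not pass, where 41.8% of all genes were called (22.3% higher, 19.6% lower) and 75% of the members. Changes of at least 2-fold were called for 1 member on 1 kPa (Tead4) and 2 on 20 kPa (Ankrd1 and F3), and for 12.6% and 11.5% of all genes. The libraries of the 2 substrates did not overlap for 7 of 7 targets on either gel and for 18 and 21 of 25 components, where 71.0% and 67.5% of all genes did not overlap. The median log2 fold change of the targets was -0.61 on 1 kPa and -0.75 on 20 kPa, that of the components -0.15 and -0.10, and that of all tested genes 0.00 and 0.02. Regardless of direction, the median size of the change was 0.61 and 0.75 for targets, 0.19 and 0.26 for components, and 0.29 and 0.27 for all genes. The components thus changed less in size than the median gene on 1 kPa and about as much on 20 kPa. They were nevertheless called more often, 56% and 68% of them against 45.0% and 41.8% of all genes. These medians are descriptions with no test between the lists. The components were set against all tested genes, not against genes of a like level, and the level of a gene can affect both measures.

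The counts of rising components were the least firm. On 1 kPa their number was 4, and it was 2 with DESeq2, 2 without glass replicate 1, 2 without 1 kPa replicate 1 and 1 without 1 kPa replicate 2. On 20 kPa it was 6, and it was 2 with DESeq2 and 3 without 20 kPa replicate 1.

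**Figure D1:**
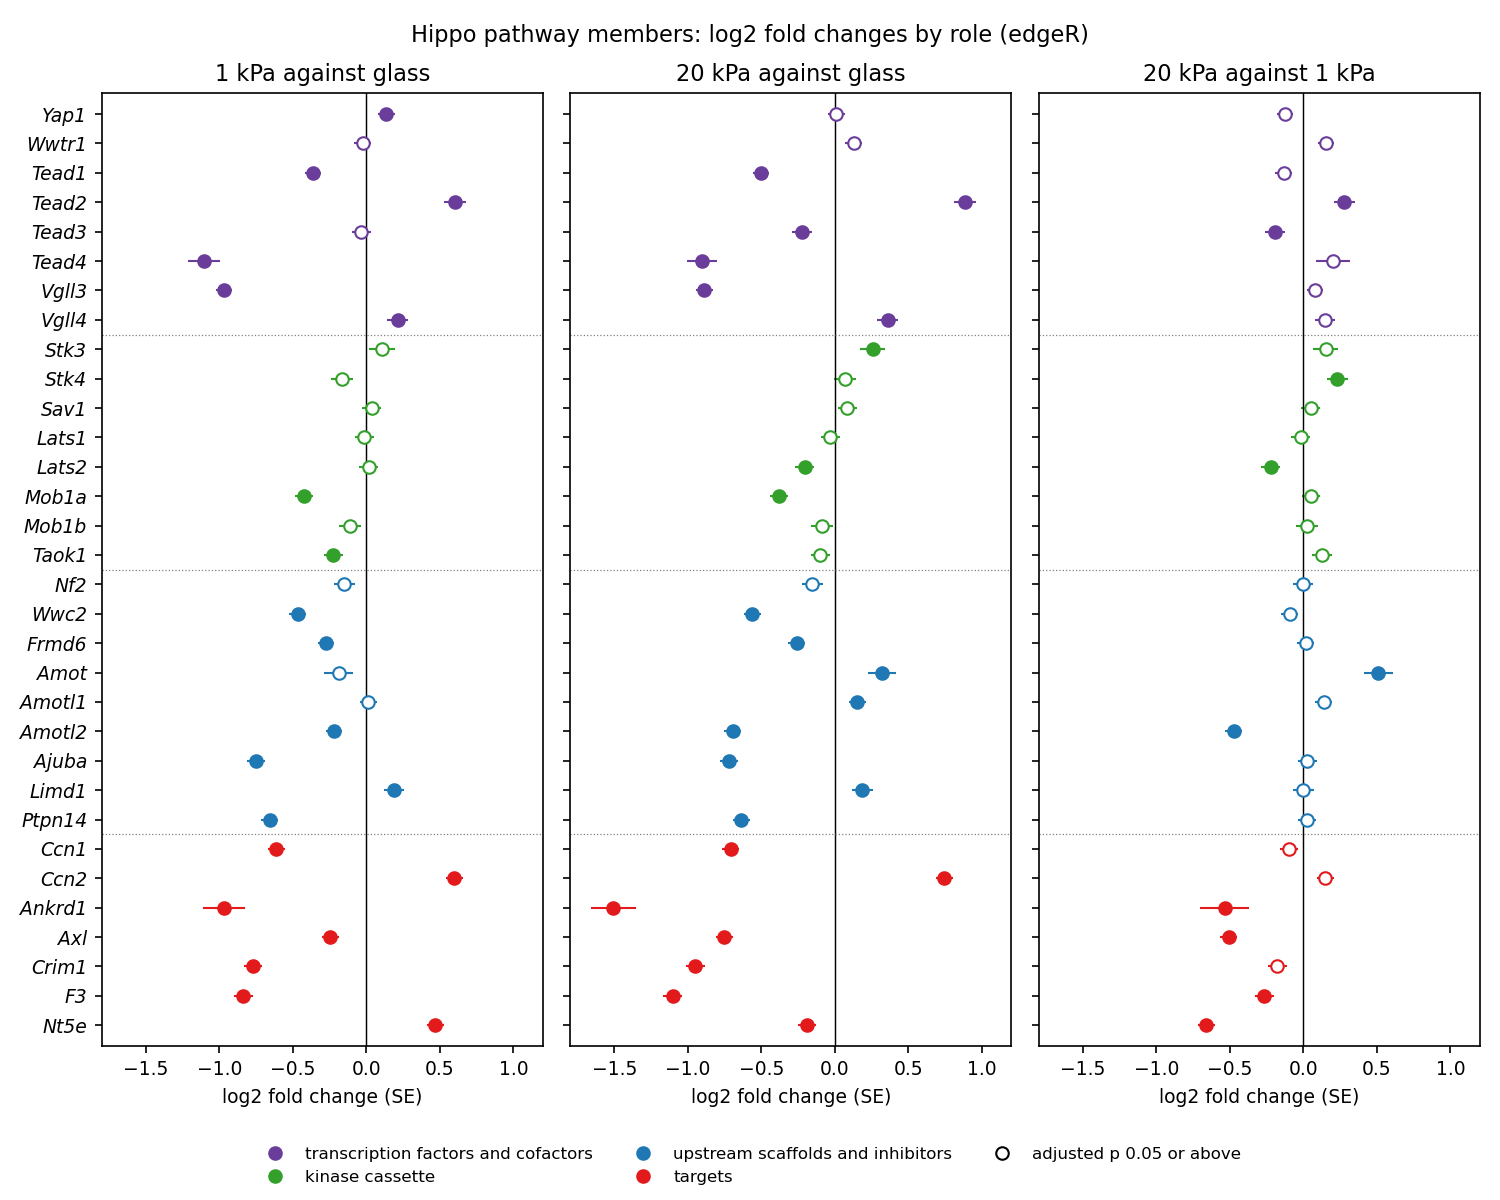
Log2 fold changes of the 32 genes (x axis) in the 3 comparisons, 1 panel each, with the standard error as a bar; colour gives the role, and filled points passed the test. The targets in red lie left of 0 against glass except Ccn2 in both panels and Nt5e on 1 kPa, while the kinase cassette in green lies between -0.43 (Mob1a on 1 kPa) and 0.26 (Stk3 on 20 kPa) in the panels against glass.

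Among the targets, the secreted matricellular proteins Ccn1 and Ccn2, both standard readouts of YAP/TAZ activity, moved in opposite directions. In GRCm38 (GENCODE M21), the 7 targets are the genes at chr3:145646976-145649981 (Ccn1), chr10:24595442-24598683 (Ccn2), chr19:36111961-36120099 (Ankrd1), chr7:25757273-25788705 (Axl), chr17:78200248-78376592 (Crim1), chr3:121723537-121735048 (F3) and chr9:88327197-88372092 (Nt5e). Ccn1 stood at 981 and 901 CPM in the glass libraries, 624.5 and 607 on 1 kPa and 569 and 582 on 20 kPa. Its log2 fold change against glass was -0.61 on 1 kPa (SE 0.06, adjusted p = 4.34e-10) and -0.71 on 20 kPa (SE 0.06, adjusted p = 2.2e-11). Every library from a gel lay below both from glass, and the gels differed by -0.10 (SE 0.06, adjusted p = 0.269), which did not pass.

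For Ccn2 the glass libraries held 598 and 567 CPM, those from 1 kPa 878 and 884, and those from 20 kPa 1006 and 947. It rose by 0.60 on 1 kPa (SE 0.06, adjusted p = 6.58e-10) and by 0.75 on 20 kPa (SE 0.06, adjusted p = 6.27e-12), with every gel library above every glass library. The difference of 0.15 between the gels had an adjusted p of 0.0703, and it passed with limma-voom, with total counts, with no filter and with only the 2 groups compared. Without glass replicate 1 or 2 it stayed at 0.15 and also passed. Such fits hardly move a difference between the gels, here and below, and change mainly the spread that the groups share. Within each library, 0.609 and 0.63 Ccn2 counts were read per Ccn1 count on glass, against 1.41 and 1.46 on the softer gel and 1.77 and 1.63 on the stiffer. Per kilobase of exon, Ccn1 was the more abundant on glass (466 against 204 CPM per kb), and on 20 kPa Ccn2 was (285 against 341.5 CPM per kb). The summed level of both differed little, at 644 to 695 CPM per kb on glass and 609 to 634 over the 4 gel libraries. An antisense gene, Gm15270, covers 23.2% of the exonic length of Ccn2, and whether strand was used in counting is not given in the sources used here.

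Ankrd1, F3 and Crim1 were lower on both gels. Ankrd1, an ankyrin-repeat protein of muscle and stretched cells, had the largest fold change of the 32 members on 20 kPa, and on 1 kPa it came after Tead4. It stood at 12.5 and 13.6 CPM on glass, 6.14 and 7.23 on the 1 kPa gel and 4.44 and 4.75 on that of 20 kPa, from 271 and 235, 126 and 129, and 91 and 98 counts. The log2 fold changes against glass were -0.97 (SE 0.14, adjusted p = 1.6e-06) and -1.51 (SE 0.15, adjusted p = 1.22e-09). It was also the scarcest target, at 4.53 CPM per kb on glass, and its standard errors are the widest of the members.

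F3, the tissue factor that starts coagulation, stood at 169 and 175 CPM on glass, 102.5 and 89.6 on the 1 kPa gel and 81.8 and 78.2 on that of 20 kPa. It fell by 0.84 on 1 kPa (SE 0.06, adjusted p = 4.36e-12) and by 1.10 on 20 kPa (SE 0.07, adjusted p = 1.15e-14). Crim1, a transmembrane protein that binds BMPs, stood at 173 and 161 CPM on glass, 94.5 and 101 on the 1 kPa gel and 90.0 and 83.3 on that of 20 kPa. Its fold changes were -0.77 (SE 0.06, adjusted p = 1.8e-11) and -0.95 (SE 0.06, adjusted p = 2.21e-13). For Ankrd1, F3 and Crim1 the 3 groups of libraries did not overlap.

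Axl and Nt5e also differed between the gels. Axl, a receptor tyrosine kinase for Gas6, stood at 680.5 and 628 CPM on glass, 541 and 564 on the 1 kPa gel and 388 and 389 on that of 20 kPa. It fell by 0.25 on 1 kPa (SE 0.06, adjusted p = 0.000817) and by 0.75 on 20 kPa (SE 0.06, adjusted p = 5.01e-12). Nt5e, the ecto-enzyme CD73 that makes adenosine, was the only target with its highest level on 1 kPa, at 155 and 159 CPM against 114 and 113 on glass and 101 and 97.4 on 20 kPa. It rose on 1 kPa by 0.47 (SE 0.06, adjusted p = 8.98e-08). On 20 kPa it fell by 0.19 (SE 0.06, adjusted p = 0.0108), a call lost with total counts (0.0691) or without 20 kPa replicate 2 (0.123).

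**Figure D2:**
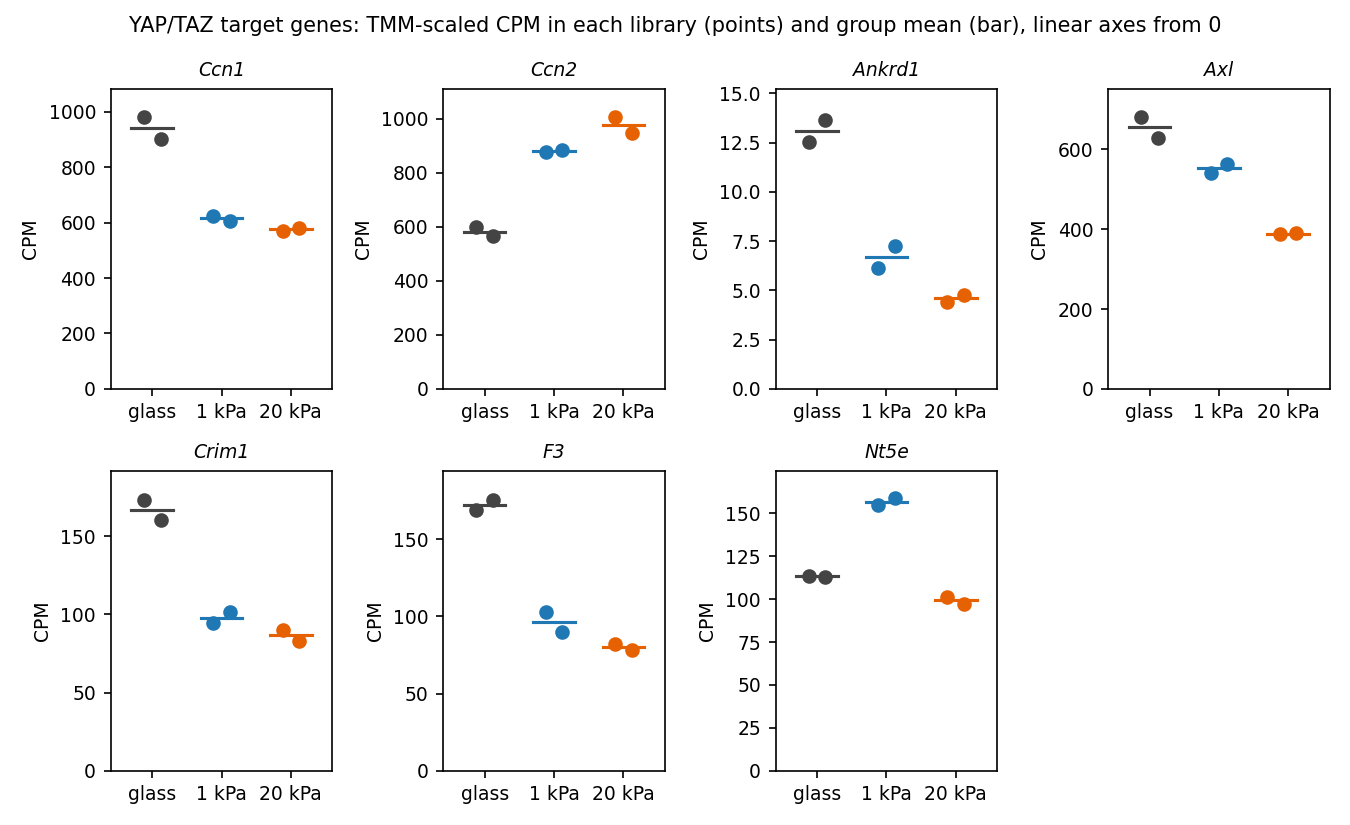
CPM of the 7 targets (y axis, linear from 0) in each of the 2 libraries per substrate (points) with the group mean (bar). Ccn1, Ankrd1, Axl, Crim1 and F3 step down from glass to 1 kPa to 20 kPa, Ccn2 steps up, and Nt5e peaks on 1 kPa.

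The order of the substrates differed between targets and components. For 5 of 7 targets (Ccn1, Ankrd1, Axl, Crim1 and F3) the libraries lay in the order glass, 1 kPa, 20 kPa from high to low with no overlap, an order found for 6.11% of all tested genes. This is not the order of stiffness, since the softest gel lay between the other substrates. Of the components, Tead1, Wwc2 and Amotl2 had the same order (3 of 25). The order of stiffness, glass over 20 kPa over 1 kPa, held for 8.01% of all genes, for the components Tead4, Vgll3 and Mob1a (3 of 25) and for 0 of 7 targets. Not all of these steps passed the test. Between the gels Ankrd1, Axl, F3 and Amotl2 passed, and Ccn1, Crim1, Tead1, Wwc2, Tead4, Vgll3 and Mob1a did not. Tead1 did pass in the edgeR fit with only the 2 groups compared (-0.14, adjusted p = 0.0205), and without glass replicate 1 or 2 (-0.13 in both). Ccn2, Tead2, Vgll4 and Stk3 had the reverse order of the falling targets, 20 kPa over 1 kPa over glass, found for 7.21% of all genes. Stk4 and Amot were highest on 20 kPa and lowest on 1 kPa (2.22% of all genes), and Nt5e was highest on 1 kPa and lowest on 20 kPa (1.92%). In these orders, too, not all steps passed. Between the gels Ccn2, Vgll4 and Stk3 did not pass, nor did Stk3, Stk4 and Amot on 1 kPa against glass. On 20 kPa against glass Stk4 did not pass. The other 14 of 25 components had libraries that overlapped between substrates, as did 64.5% of all tested genes.

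Set directly against 1 kPa, the 20 kPa gel lowered 4 of 7 targets and raised 0, and of the components 3 rose and 3 fell, where 18.9% of all genes were called (8.94% higher, 9.92% lower). No member reached a called 2-fold change, as 3.10% of all genes did, and the libraries of the gels did not overlap for 7 targets and 19 components, against 60.1% of all genes. For raised targets the count at an unadjusted p under 0.05 was 1, that of Ccn2, and limma-voom called 1. Nt5e fell by 0.66 (SE 0.06, adjusted p = 5.88e-10), Axl by 0.51 (SE 0.06, adjusted p = 7.27e-08), Ankrd1 by 0.54 (SE 0.16, adjusted p = 0.0205) and F3 by 0.27 (SE 0.07, adjusted p = 0.00438). The call for Ankrd1 was lost with DESeq2 (0.0725) and without 1 kPa replicate 2 (0.221), 20 kPa replicate 1 (0.141) or 20 kPa replicate 2 (0.069). That for F3 was lost without 1 kPa replicate 1 (0.281) or 20 kPa replicate 2 (0.0974). Without 20 kPa replicate 2, 2 targets were called lower in place of 4. The value for Crim1 was -0.18 (SE 0.07, adjusted p = 0.0567). It passed in the edgeR fits with RLE factors (0.0441), with a stricter filter (0.0388) and with only the 2 groups compared (0.0192). Without glass replicate 1 or 2 it also passed, at -0.17 in both. The components that rose were Tead2, Stk4 and Amot, and those that fell were Tead3, Lats2 and Amotl2. Both counts of components were 5 without glass replicate 1 or 2. The count of rises was 1 without 1 kPa replicate 1, 1 kPa replicate 2 or 20 kPa replicate 2, and that of falls 1 without 1 kPa replicate 2 or either 20 kPa library.

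TEAD factors bind the letters GGAATG, which read CATTCC on the other strand, and the 250 bases before the annotated start of each gene were searched for them on both strands. RefSeq windows (GRCm38.p6) were matched by symbol for 27 of 32 members; Ccn2, Limd1, Stk3, Tead1 and Tead4 had none. The letters stood in the window of 4 of 6 targets and, counting a gene once over its windows, of 11 of 21 components, and in 14.4% of all genes with a window. No member window held a CArG box, the SRF-binding sequence, which 1.47% of all windows hold. These are matches of letters, not measured binding. The sites of the targets that fell on the gels are printed below as 30 bases on the strand of the gene, 5′ to 3′, with the searched letters in capitals, to show how they vary around the shared core.
Ankrd1, chr19:36120037-36120066, minus strand, first letter 210 bases before the start: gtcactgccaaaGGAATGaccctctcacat
Ankrd1, chr19:36119950-36119979, minus strand, 123 bases before: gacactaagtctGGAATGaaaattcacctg
Axl, chr7:25788949-25788978, minus strand, 233 bases before: ggaaattctacaGGAATGtttaccagaccc
Ccn1, chr3:145650071-145650100, minus strand, 103 bases before: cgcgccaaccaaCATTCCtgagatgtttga
Crim1, chr17:78200157-78200186, plus strand, 79 bases before: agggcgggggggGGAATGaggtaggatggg
F3 and Nt5e held none in this window. GENCODE M21 annotates all 250 bases of the Ankrd1 and Nt5e windows as exonic. It does so for 116 bases of the F3 window, 28 of that of Crim1, and none of those of Ccn1 and Axl.

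The sites found in components that fell on both gels are shown in the same way. Frmd6 also fell on both gels but held none in its window, and Tead1 and Tead4 had no window. Exonic bases numbered 250 in the window of Wwc2, 143 in that of Mob1a and 136 in that of Amotl2. The windows of Ajuba, Ptpn14 and Vgll3 held none.
Ajuba, chr14:54577830-54577859, minus strand, 186 bases before the start: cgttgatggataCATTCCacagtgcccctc
Ajuba, chr14:54577808-54577837, minus strand, 164 bases before: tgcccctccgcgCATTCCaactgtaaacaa
Amotl2, chr9:102717727-102717756, plus strand, 65 bases before: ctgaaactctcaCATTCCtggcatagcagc
Mob1a, chr6:83325818-83325847, plus strand, 209 bases before: tggccagaatagCATTCCtttaggagaaga
Ptpn14, chr1:189728110-189728139, plus strand, 146 bases before: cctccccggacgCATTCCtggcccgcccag
Vgll3, chr16:65815114-65815143, plus strand, 63 bases before: cccgcctccccaCATTCCggctaccctgcc
Wwc2, chr8:47990606-47990635, minus strand, 79 bases before: atgtggcggcgaGGAATGtgcatgcagatg
Wwc2, chr8:47990621-47990650, minus strand, 94 bases before: gggttaagctcaGGAATGtggcggcgagga
Wwc2, chr8:47990730-47990759, minus strand, 203 bases before: gagcgagctgtgCATTCCtccgccctaccg
The other components that hold the letters are Vgll4, which rose on both gels, Yap1, Wwtr1, Tead3 and Sav1. The whole window of Ccn1, the most abundant target on glass, is given for its context (chr3:145649986-145650235, minus strand): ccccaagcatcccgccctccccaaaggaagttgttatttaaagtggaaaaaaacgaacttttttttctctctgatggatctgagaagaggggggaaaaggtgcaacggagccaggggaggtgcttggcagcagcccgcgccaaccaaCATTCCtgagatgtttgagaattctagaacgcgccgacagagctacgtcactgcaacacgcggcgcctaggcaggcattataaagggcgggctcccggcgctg

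The coactivators themselves changed little. Yap1 stood at 169 and 172 CPM on glass, 189 and 187 on the 1 kPa gel and 175 and 169 on that of 20 kPa. Its rise of 0.14 on 1 kPa (SE 0.06, adjusted p = 0.0499) lay at the threshold and was lost in 11 of 14 alternatives, among them DESeq2 (0.0852), every fit without a 1 kPa library (0.193 to 0.25) or a 20 kPa library (0.076 to 0.0772), and that without glass replicate 1 (0.0863). On 20 kPa the value was 0.01 (SE 0.06, adjusted p = 0.905). From 1 kPa to 20 kPa Yap1 did not pass, with values of -0.15 to -0.08 over the 14 alternatives. It passed in 3 of these, among them the edgeR fit with only the 2 groups compared (-0.13, adjusted p = 0.0385). Wwtr1 stood at 161.5 and 167 CPM on glass, 160.3 and 162 on the 1 kPa gel and 182.5 and 176 on that of 20 kPa. It passed in none of the 3 edgeR comparisons, with unadjusted p under 0.05 in 2 of them. Its difference of 0.15 between the gels (SE 0.06, adjusted p = 0.0554) passed with limma-voom, with total counts and with only the 2 groups compared. Without glass replicate 1 or 2 this difference was 0.16 and also passed. That of 0.13 from glass on 20 kPa (SE 0.06, adjusted p = 0.069) passed with the stricter filter (adjusted p = 0.0449) and, at 0.15, without glass replicate 2. Per kilobase of exon Wwtr1 was the more abundant in every library, with 62.2% to 66.9% of the summed level of both genes. This rests on the exonic length over all annotated transcripts, 9257 bases for Yap1 and 4779 for Wwtr1. For each Yap1 count, 0.953 and 0.968 Wwtr1 counts were read on glass, 0.849 and 0.868 on 1 kPa and 1.04 in both libraries from 20 kPa.

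The TEAD family, by contrast, changed in makeup. Tead1, the most abundant of the family per kilobase, stood at 386 and 373 CPM on glass, 293 and 297 on the 1 kPa gel and 272 and 265 on that of 20 kPa. It fell by 0.37 on 1 kPa (SE 0.06, adjusted p = 2.4e-06) and by 0.50 on 20 kPa (SE 0.06, adjusted p = 1e-08). Tead4, a TEAD factor known from the trophectoderm, had the largest fold change of the members on 1 kPa. It stood at 23.9 and 23.1 CPM on glass, 10.8 and 11.1 on the 1 kPa gel and 12.3 and 12.8 on that of 20 kPa. Its fold changes were -1.10 (SE 0.11, adjusted p = 7.58e-10) and -0.90 (SE 0.10, adjusted p = 2.55e-08).

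Tead2, a TEAD factor prominent in the early embryo, went the other way, from 34.2 and 32.4 CPM on glass to 50.7 and 50.8 on 1 kPa and 61.0 and 62.2 on 20 kPa. It rose by 0.60 on 1 kPa (SE 0.08, adjusted p = 8.67e-08) and by 0.88 on 20 kPa (SE 0.07, adjusted p = 3.13e-11). The further rise of 0.28 from 1 kPa to 20 kPa (SE 0.07, adjusted p = 0.00485) was lost without 1 kPa replicate 1 (0.0615), 1 kPa replicate 2 (0.0713) or 20 kPa replicate 2 (0.0582). Tead3 stood at 68.1 and 64.2 CPM on glass, 64.3 and 65.1 on the 1 kPa gel and 56.2 and 57.0 on that of 20 kPa. Its fall of 0.23 on 20 kPa against glass (SE 0.07, adjusted p = 0.00791) did not pass when glass replicate 1 (0.0601) or 20 kPa replicate 1 (0.0691) was left out. Its fall of 0.19 against 1 kPa (SE 0.07, adjusted p = 0.0455) was lost with DESeq2 (0.0993), with the replicate block and without any of the 4 gel libraries (0.159 to 0.264).

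On the scale of CPM per kilobase, the 4 TEAD genes summed to 50.3 to 52.4 on glass, 44.7 to 45.3 on 1 kPa and 44.6 on 20 kPa. Tead1 made up 54.3% to 54.7% of that sum on glass, 48.2% to 48.3% on 1 kPa and 43.8% to 45.0% on 20 kPa. The share of Tead2 was 13.5% to 13.6%, 23.4% to 23.7% and 28.6% to 29.1% on the same substrates, and that of Tead4 12.7% to 12.8%, 6.72% to 6.81% and 7.69% to 8.01%. For these 3 genes the shares on glass did not overlap those on either gel.

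The TEAD cofactors Vgll3 and Vgll4 also moved apart. Vgll3, a vestigial-like protein that binds TEADs, stood at 452 and 471.5 CPM on glass, 229 and 243 on the 1 kPa gel and 251 and 248 on that of 20 kPa. It fell by 0.97 (SE 0.06, adjusted p = 7.7e-15) and by 0.89 (SE 0.06, adjusted p = 6.28e-14), among the components the smallest adjusted p in both comparisons. Vgll4, which competes with YAP for TEAD binding, stood at 53.2 and 57.0 CPM on glass, 61.9 and 65.6 on the 1 kPa gel and 71.4 and 69.7 on that of 20 kPa. It rose by 0.21 on 1 kPa (SE 0.07, adjusted p = 0.0138), a call lost without glass replicate 1 (0.0986) or 1 kPa replicate 2 (0.179), and by 0.36 on 20 kPa (SE 0.07, adjusted p = 8.78e-05).

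**Figure D3:**
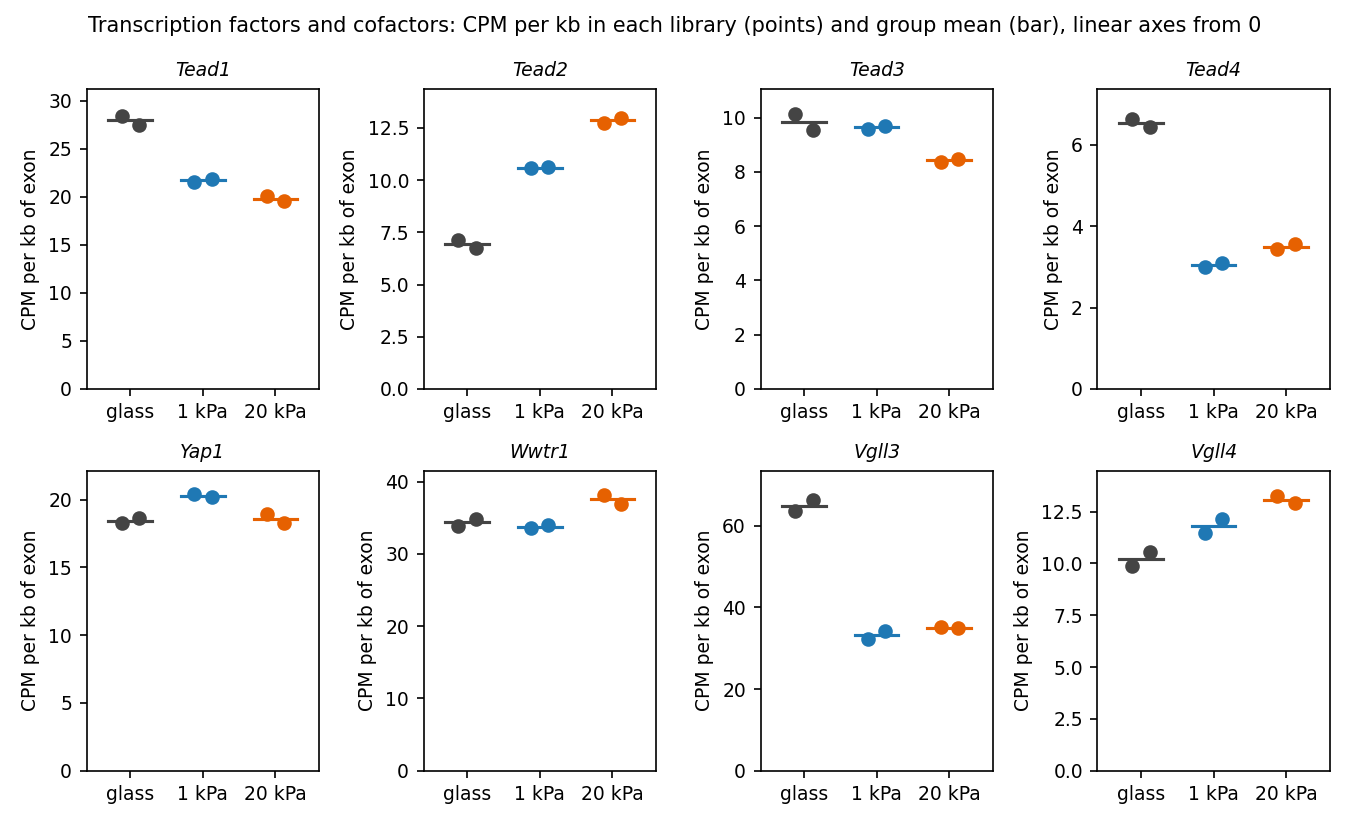
Level per kilobase of exon (y axis, CPM per kb, linear from 0) of the 4 TEAD genes, Yap1, Wwtr1, Vgll3 and Vgll4 in each library (points) with group means (bars). Tead1, Tead4 and Vgll3 are highest on glass, Tead2 and Vgll4 are lowest there, and Yap1 and Wwtr1 stay within narrow ranges.

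Against glass, fewer genes of the kinase cassette were called than of the other groups of components. Of its 8 members, 2 fell on 1 kPa and 6 did not pass, and on 20 kPa 2 fell, 1 rose and 5 did not pass. These are 25% and 37.5% of the cassette, against 45.0% and 41.8% of all genes. Mob1a, the LATS cofactor, had the largest change of the cassette. It stood at 207 and 235 CPM on glass, 163 and 165 on the 1 kPa gel and 169.5 and 171 on that of 20 kPa, and fell by 0.43 (SE 0.06, adjusted p = 9.97e-07) and by 0.38 (SE 0.06, adjusted p = 7.63e-06). Its paralog Mob1b passed in no comparison, with means of 54.5, 50.4 and 51.3 CPM on glass, 1 kPa and 20 kPa, and Mob1a held 90.8% to 93.2% of the summed level of both per kilobase. That share depends on annotated exonic lengths of 4794 bases for Mob1a and 15033 for Mob1b.

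Of the LATS kinases, Lats2 changed and Lats1 did not pass. Lats1, which phosphorylates YAP and TAZ, passed in no comparison, with log2 fold changes of -0.01 and -0.03 against glass (SE 0.07 for both), and neither did the scaffold Sav1 (0.04 and 0.09, SE 0.06 for both), 25.4% of whose exonic length overlaps Atl1 on the other strand. Lats2, a kinase that is itself a YAP/TAZ target, stood at 80.5 and 83.4 CPM on glass, 80.0 and 85.8 on the 1 kPa gel and 71.5 and 70.6 on that of 20 kPa. It fell on 20 kPa by 0.21 against glass (SE 0.06, adjusted p = 0.0112) and by 0.22 against 1 kPa (SE 0.06, adjusted p = 0.0147). The first call was lost without 20 kPa replicate 1 (0.0626) or 2 (0.0842), and the second without 1 kPa replicate 2 (0.275), 20 kPa replicate 1 (0.0946) or 20 kPa replicate 2 (0.12); both were lost with total counts (0.0569 and 0.086). A same-strand gene, Gm49361, covers 42.4% of the exonic length of Lats2, so its counts are uncertain.

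Stk3 and Stk4, the MST kinases, and Taok1, a kinase that activates them, changed in small steps. Stk3 stood at 26.9 and 28.8 CPM on glass, 29.6 and 30.3 on the 1 kPa gel and 33.7 and 32.7 on that of 20 kPa. Its rise of 0.26 on 20 kPa (SE 0.08, adjusted p = 0.0145) was lost with DESeq2 (0.0776) and without glass replicate 1 (0.103) or 20 kPa replicate 1 (0.0891). Stk4 stood at 48.1 and 49.8, 42.4 and 45.0, and 52.7 and 49.8 CPM on the same substrates, and rose by 0.23 from 1 kPa to 20 kPa (SE 0.07, adjusted p = 0.0268), a call lost with DESeq2 (0.109) and without any of the 4 gel libraries (0.0574 to 0.266). Taok1 fell by 0.23 on 1 kPa (SE 0.07, adjusted p = 0.00543), not without glass replicate 2 (0.0896) or 1 kPa replicate 2 (0.104). On 20 kPa its value of -0.10 against glass (SE 0.06, adjusted p = 0.239) passed only without glass replicate 1 (-0.19, 0.0146), and it was -0.0035 without glass replicate 2 (0.972). On 1 kPa the value was -0.32 without glass replicate 1 and -0.13 without glass replicate 2.

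Of the 9 upstream components, 5 fell against glass on each gel, 1 rose on 1 kPa and 3 rose on 20 kPa. These are 66.7% and 88.9% of the group, against 45.0% and 41.8% of all genes called. Ajuba and Limd1, LIM proteins that inhibit LATS, moved in opposite directions. Ajuba stood at 118 and 113 CPM on glass, 67.8 and 69.8 on the 1 kPa gel and 70.8 and 69.5 on that of 20 kPa, and fell by 0.75 (SE 0.06, adjusted p = 2.7e-11) and 0.72 (SE 0.06, adjusted p = 6.2e-11). Limd1 stood at 63.7 and 57.1 CPM on glass, 68.9 and 69.0 on the 1 kPa gel and 66.2 and 71.6 on that of 20 kPa. Its rise of 0.19 on each gel (SE 0.07 for both, adjusted p = 0.0318 and 0.0332) was lost with DESeq2 (0.0938 and 0.124). It was also lost without glass replicate 2 (0.245 and 0.237), 1 kPa replicate 1 (0.133 and 0.0504) or 1 kPa replicate 2 (0.147 and 0.0659), and on 20 kPa without its replicate 2 (0.292).

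Ptpn14, a phosphatase that binds YAP and is also a YAP/TAZ target, stood at 279 and 250.2 CPM on glass, 166 and 169.5 on the 1 kPa gel and 173 and 168 on that of 20 kPa. It fell by 0.66 (SE 0.06, adjusted p = 1.62e-10) and 0.64 (SE 0.06, adjusted p = 3.67e-10). Wwc2, a relative of the scaffold KIBRA, stood at 156 and 153.5 CPM on glass, 113 and 110.5 on the 1 kPa gel and 107 and 103 on that of 20 kPa, and fell by 0.47 (SE 0.06, adjusted p = 1e-07) and 0.56 (SE 0.06, adjusted p = 3.56e-09). Frmd6, a FERM-domain protein upstream of the kinases, fell by 0.27 and 0.26 (SE 0.06 for both, adjusted p = 0.000189 and 0.000388) from a mean of 270.7 ± 12.2 CPM (SD, n = 2). Nf2, which encodes the FERM-domain tumour suppressor merlin, had values of -0.15 on both gels (SE 0.07 for both, adjusted p = 0.08 and 0.0761) and passed on both without glass replicate 2 (0.0089 and 0.0084), and on 1 kPa without 1 kPa replicate 1 (0.0459). Without glass replicate 1 the values were -0.07 on both gels (0.486 and 0.497), and without 1 kPa replicate 2 -0.07 on 1 kPa (0.596).

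Of the angiomotins, which tether YAP at junctions and actin filaments, Amotl2 and Amot differed between the gels. Amotl2, itself a YAP/TAZ target, stood at 672 and 617 CPM on glass, 545 and 562 on the 1 kPa gel and 398 and 399 on that of 20 kPa. It fell by 0.22 on 1 kPa (SE 0.06, adjusted p = 0.00236), a call lost without 1 kPa replicate 1 (0.0625), by 0.69 on 20 kPa (SE 0.06, adjusted p = 3.04e-11) and by 0.47 from 1 kPa to 20 kPa (SE 0.06, adjusted p = 2.53e-07). Amot stood at 21.7 and 20.7 CPM on glass, 17.5 and 19.7 on the 1 kPa gel and 27.6 and 25.3 on that of 20 kPa. Its rise of 0.51 from 1 kPa to 20 kPa (SE 0.10, adjusted p = 0.00023) passed in all 14 alternatives, and that of 0.32 from glass to 20 kPa (SE 0.10, adjusted p = 0.00736) was lost with DESeq2 (0.0515) and without 20 kPa replicate 1 (0.0997).

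Amotl1 rose by 0.15 on 20 kPa (SE 0.06, adjusted p = 0.0348), from 134.4 and 134.2 CPM on glass to 152 and 147. This was lost in 7 of 14 alternatives, including DESeq2 (0.0995) and the fits without any of the 4 gel libraries (0.0684 to 0.217). Between the gels its value was 0.14 (SE 0.06, adjusted p = 0.0977), which passed in the edgeR fit with only the 2 groups compared (0.0345). Without glass replicate 1 or 2 it also passed, at 0.14 in both. Per kilobase the summed level of the 3 angiomotins was 114 to 123 CPM on glass, 102 to 105 on 1 kPa and 81.0 to 81.7 on 20 kPa. Amotl2 made up 86.1% to 87.0%, 84.7% to 85.1% and 77.5% to 78.3% of it on the same substrates.

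**Figure D4:**
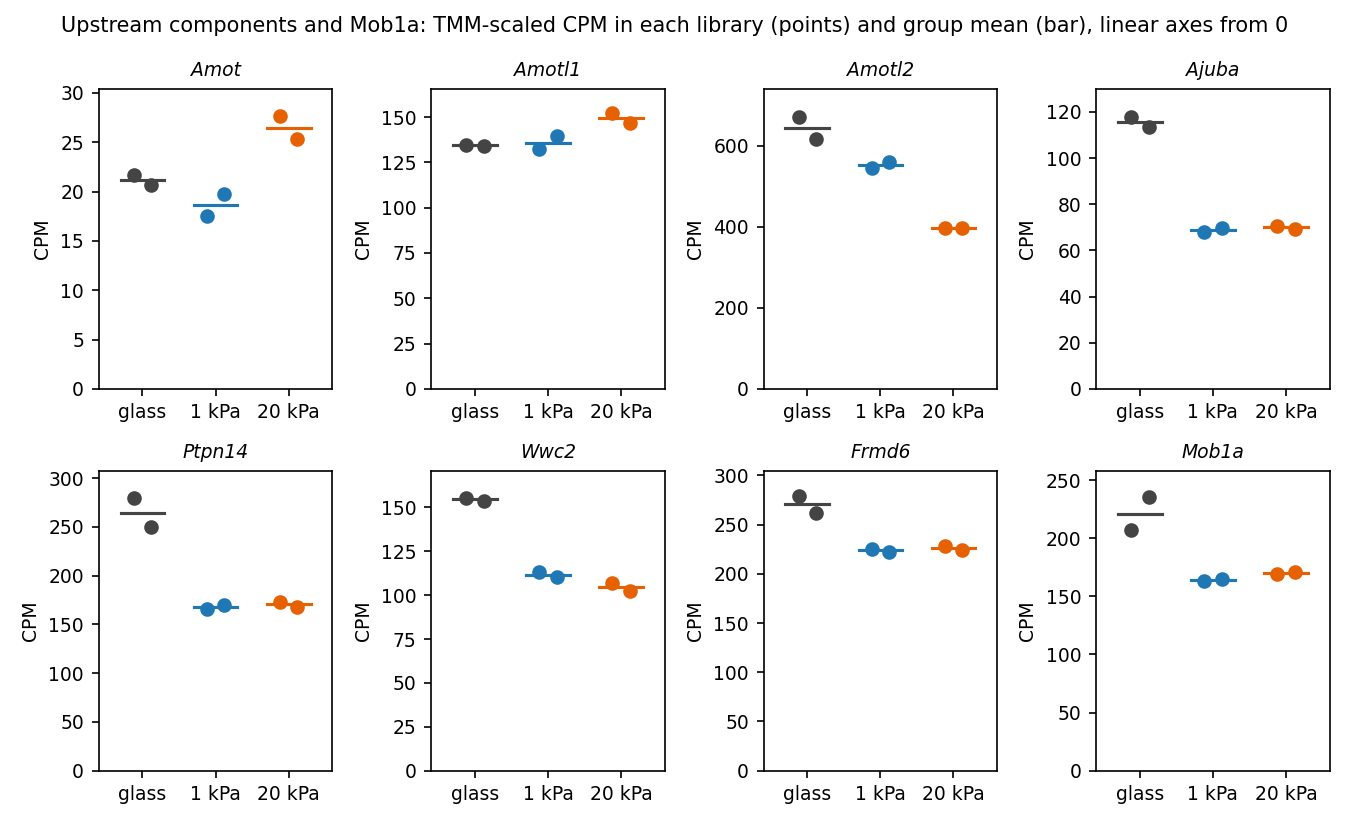
CPM (y axis, linear from 0) of 7 upstream components and Mob1a in each library (points) with group means (bars). Ajuba, Ptpn14, Wwc2, Frmd6 and Mob1a drop from glass to both gels, Amotl2 drops again on 20 kPa, and Amot is highest on 20 kPa.

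Lats2, Amotl2 and Ptpn14 are pathway components that YAP and TAZ are known to induce as negative feedback. Counted with the targets, 7 of 10 genes fell and 2 rose on 1 kPa, 9 fell and 1 rose on 20 kPa, and between the gels 6 fell and 0 rose on 20 kPa. The remaining 22 components then split into 8 lower and 4 higher on 1 kPa, 8 lower and 6 higher on 20 kPa, and 1 lower and 3 higher between the gels. In the same order, 90%, 100% and 60% of the 10 genes were called, and 54.5%, 63.6% and 18.2% of the 22. Of all tested genes 45.0%, 41.8% and 18.9% were called, so between the gels the 22 were called about as often as all genes. Over all 3 substrates, 27 of 32 members differed (7 of 7 targets and 20 of 25 components), where 51.2% of all tested genes did. Yap1, Sav1, Lats1, Mob1b and Nf2 did not pass this test.

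Genes of the pathway outside the 32 were described from 2 lists. Of 43 other Hippo components, 40 were tested. On 1 kPa 12 rose and 9 fell, on 20 kPa 7 rose and 12 fell, and between the gels 4 rose and 7 fell on 20 kPa, with medians of 0.00, -0.09 and -0.01. These are 52.5%, 47.5% and 27.5% of the list called, against 45.0%, 41.8% and 18.9% of all genes. The 4 with the smallest p over the 3 substrates were Dchs1, Fat4, Wwc1 and Map4k3. Dchs1 and Fat4, giant cadherins that bind each other across cell contacts, rose: the mean of Dchs1 was 2.93 CPM on glass, 22.5 on 1 kPa and 25.6 on 20 kPa, and that of Fat4 57.6, 93.7 and 142. Wwc1, the scaffold KIBRA, fell by 1.14 on 1 kPa and by 0.99 on 20 kPa, alongside its relative Wwc2. Map4k3, a kinase that can act on LATS, fell by 0.25 on 1 kPa and rose by 0.20 on 20 kPa.

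Of 21 other YAP/TAZ targets, all tested, 11 fell and 5 rose on 1 kPa, 13 fell and 5 rose on 20 kPa, and between the gels 6 rose and 5 fell on 20 kPa. The shares called were 76.2%, 85.7% and 52.4%, against 45.0%, 41.8% and 18.9% of all genes, of which 22.0% and 19.6% were called lower against glass. Their medians were -0.25 and -0.24 against glass and 0.01 between the gels, whereas the 7 targets above had -0.27 between the gels. The mean of Thbs1, the matrix glycoprotein thrombospondin 1, fell from 3865 CPM on glass to 2149 on 1 kPa and 2011 on 20 kPa. Anxa3, a membrane-binding annexin, fell by 1.00 and 1.29 on 1 kPa and 20 kPa. Nuak2, a kinase related to AMPK, fell by 1.92 and 1.15, and was higher on 20 kPa than on 1 kPa (0.77). Those that rose included Igfbp3, a binding protein of insulin-like growth factors, by 3.08 and 2.56, and the ligand Tgfb2 by 1.55 and 1.98.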

How the data were processed

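The deposited file holds whole-number counts per gene for 6 libraries, with no normalisation by the authors as far as the values show. Per the submitters' processing notes, the tools were STAR 2.7.10b, featureCounts, cutadapt and Trim Galore, with mm10 as the build. No settings, annotation release or strand use were given in the sources used here. Groups and replicate numbers came from the sample titles. Identifiers were matched without version to GENCODE M21 (GRCm38, 91.4% matched), which gave positions and exon lengths. Genes were kept with filterByExpr and scaled with TMM; all 6 libraries entered 1 quasi-likelihood fit with group as the only term (edgeR 4.0.16, R 4.3.3; 3 residual degrees of freedom), with Benjamini-Hochberg adjustment over all 16093 genes at 0.05. SE was obtained as |log2 fold change| over the root of F. Alternatives used DESeq2 1.42.0, limma 3.58.1 (voom), total counts, RLE factors, 2 other filters, only the 2 groups compared, a replicate block and each library left out. The members and lists were chosen with earlier results of these data known. All 32 members are named; from the other pathway lists the 4 genes with the smallest p over the 3 substrates and Igfbp3 and Thbs1; 1 further gene of that rule is not reported here. Of the 43 other Hippo names, Kirrel1 matched no symbol. The 3-count floors cover counting error only.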

Additional observations from a re-analysis of the deposited data

How the results depend on the processing

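The 14 alternatives reversed no call. Of the members called, 16 of 21 kept their call in all 14 for 1 kPa against glass, 17 of 24 for 20 kPa against glass and 4 of 10 for 20 kPa against 1 kPa. The rising components on 1 kPa (4) numbered 2 with DESeq2, total counts or no filter, and those on 20 kPa (6) numbered 2 with DESeq2. Between the gels, components higher (3) numbered 5 with only the 2 groups compared, and components lower (3) numbered 1 with total counts, 5 with only the 2 groups compared and 1 with Lats2, Amotl2 and Ptpn14 counted as targets. Targets higher (0) numbered 1 with limma-voom, total counts, no filter or only the 2 groups compared. With 1 library left out, where a lone library is assumed to vary like the other groups, the ranges were 1 to 3 components higher and 9 to 10 lower on 1 kPa, 3 to 6 and 9 to 12 on 20 kPa, and 1 to 5 for each between the gels; targets higher and lower ranged from 2 to 2 and 5 to 5, 1 to 1 and 5 to 6, and 0 to 1 and 2 to 5. The cause was not tested.

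Sign changes were limited to values that passed in neither fit. For 20 kPa against glass, Yap1 was at -0.002 with DESeq2 and with RLE factors (-0.0131 to 0.0384 with a library left out), and Lats1 at 9e-04 with total counts (-0.1042 to 0.0428). For 20 kPa against 1 kPa, total counts gave 0.0275 for Lats1, 0.0415 for Nf2 and 0.0442 for Limd1, and no filter gave 0.0053 for Nf2 and 0.0089 for Limd1; with a library left out, Mob1b ranged from -0.0433 to 0.0966, Nf2 from -0.0808 to 0.0827 and Limd1 from -0.0549 to 0.0584. For 1 kPa against glass the same ranges were -0.0761 to 0.0097 for Tead3, -0.0906 to 0.0571 for Lats1, -0.0345 to 0.0653 for Lats2 and -0.0235 to 0.0513 for Amotl1. Scaling moved the median of all genes by at most 0.05 on the log2 scale.

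The titles give each group replicates 1 and 2, but same-numbered libraries did not deviate together over the tested genes (correlations of -0.0347, -0.0158 and -0.0338). Such a correlation cannot show a link that touches few genes. The labels do not say whether same-numbered samples share more than a number. With the replicate block, 7032, 6526 and 2862 genes were called in place of 7238, 6732 and 3035, and Limd1 was at 0 between the gels.

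The spread of each substrate rests on 2 libraries. Over the tested genes, the chi-square per degree of freedom between them was 39.7 on glass, 10.5 on 1 kPa and 3.61 on 20 kPa. Their log2 CPM correlated at 0.992, 0.992 and 0.993. The fit uses a spread common to the groups, so unequal spreads are not modelled. The lowest member count was 91, for Ankrd1.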
